A study of Homo sapiens with 15 samples.

Results

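The mitosis genes are 54 genes whose products condense and hold chromosomes, drive entry into mitosis, build the spindle and the kinetochore, guard the start of anaphase or divide the cell. TOP2A, the gene of DNA topoisomerase IIα, is one of them. Members were taken by gene symbol, and all 54 were found in both tables of RNA-seq values, among 17769 genes with an identifier in the table of the knockout models and 60510 in the table of PU-H71 resistance. Each member also passed the filter on low values, in 17039 and 16503 tested genes. The question asked of them is which mitosis genes differed after loss of either HSP90 isoform or after acquired resistance to an HSP90 inhibitor, and whether TOP2A followed the others.

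All libraries come from K562, a BCR-ABL1+ chronic myeloid leukemia cell line. The knockout table compares empty vector (EV) control cells, HSP90α-KO cells and HSP90β-KO cells, made by lentiviral transfer of CAS9 and a guide RNA, fluorescence sorting and monoclonal selection. The resistance table compares PUHr cells, clones picked after prolonged culture in rising amounts of the HSP90 inhibitor PU-H71, with parental cells kept in the solvent DMSO for as long, both given the genotype WT in the labels. Each of the 5 groups has 3 replicates. The labels do not tie replicates to separate clones or cultures, so p-values measure the spread between these libraries, and the loss of an isoform (or the resistance) cannot be told apart from the clone. RNA from whole cultures was measured, so a larger share of cells in mitosis and more of a transcript per mitotic cell cannot be told apart either. In the paper, staining of DNA content showed no significant change in the cell cycle phases of either knockout. That staining did not count mitotic cells apart. The tables were normalized separately, and levels are compared only within each.

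Many mitosis genes are switched on together late in the cell cycle. Their promoters are held silent by the DREAM complex in resting cells and are activated by the MuvB core with MYBL2 and then FOXM1 as cells approach mitosis. The DNA element bound by MuvB is the cell cycle genes homology region (CHR), which often lies downstream of CCAAT boxes bound by the factor NF-Y. TOP2A relaxes and untangles DNA by passing one duplex through another, is needed to separate sister chromatids, and is the target of drugs such as mitoxantrone and etoposide. Its paralog TOP2B carries out the same reaction and is present throughout the cell cycle, in resting cells too.

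Promoters of 4 members are shown because the letters of these elements were more frequent among mitosis genes than among all promoters. TOP2A, MKI67 and KIFC1 are among the members that rose most in HSP90α-KO, and NCAPG rose most in PUHr. They are the 250 bases before the RefSeq start on GRCh38.p14, written 5′ to 3′ on the gene's strand: TOP2A on the minus strand of chr17:40417897-40418146, MKI67 on the minus strand of chr10:128126424-128126673, NCAPG on the plus strand of chr4:17810729-17810978 and KIFC1 on the plus strand of chr6:33391573-33391822. Capitals mark the letters TTTGAA or TTCGAA of the CHR and CCAAT, on either strand, and neighbouring matches may overlap.
TOP2A: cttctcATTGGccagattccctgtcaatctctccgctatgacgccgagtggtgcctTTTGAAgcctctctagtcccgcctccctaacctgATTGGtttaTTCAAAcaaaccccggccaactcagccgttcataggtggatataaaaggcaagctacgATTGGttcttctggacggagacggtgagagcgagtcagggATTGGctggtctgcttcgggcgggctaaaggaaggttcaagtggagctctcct
MKI67: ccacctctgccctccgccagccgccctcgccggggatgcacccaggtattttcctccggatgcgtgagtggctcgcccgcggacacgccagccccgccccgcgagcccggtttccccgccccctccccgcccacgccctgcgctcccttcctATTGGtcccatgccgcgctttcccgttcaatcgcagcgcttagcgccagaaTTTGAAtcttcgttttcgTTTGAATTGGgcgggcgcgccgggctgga
NCAPG: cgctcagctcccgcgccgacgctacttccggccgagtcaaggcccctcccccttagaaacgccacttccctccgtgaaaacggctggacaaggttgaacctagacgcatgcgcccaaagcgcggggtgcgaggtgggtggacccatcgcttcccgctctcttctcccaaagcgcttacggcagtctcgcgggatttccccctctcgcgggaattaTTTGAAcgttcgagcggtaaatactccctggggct
KIFC1: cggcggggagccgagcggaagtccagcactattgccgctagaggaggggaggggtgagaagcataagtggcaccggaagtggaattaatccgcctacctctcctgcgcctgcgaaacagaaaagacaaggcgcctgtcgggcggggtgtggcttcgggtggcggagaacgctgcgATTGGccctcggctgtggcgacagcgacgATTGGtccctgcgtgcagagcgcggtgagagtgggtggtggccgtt
The TOP2A window holds 2 CHR and 4 CCAAT matches and that of MKI67 holds 2 of each. NCAPG has 1 CHR and no CCAAT, whereas KIFC1 has 2 CCAAT and no CHR.

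Of the 54 members 47 matched the RefSeq table, with 62 windows. CHR letters were found in 41.9% of these windows, against 14.3% of all 35116 windows of the same length. CCAAT was found in 66.1% against 32%, and both were found in 33.9% against 5.05%. E2F letters (GCGCGAAA, GGCGCGAA or GGCGGGAA) were in 6.45% against 3.7%. These are matches of letters and not measured binding. In HSP90α-KO against EV the median log2 fold change was 0.26 over the 25 members with a CHR and 0.20 over the 22 matched members without one. In HSP90β-KO these medians were -0.11 and -0.09, and in PUHr 0.06 and 0.01.

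Between 19594381 and 26216730 reads per library fell on the listed genes, and 1 read corresponded to 0.0381 to 0.0518 CPM. Mitochondrial transcripts took 13.1 to 13.7% of reads in EV, 11.3 to 12.4% in HSP90α-KO, 12.4 to 12.6% in HSP90β-KO, 9.47 to 9.54% in parental cells and 8.67 to 8.95% in PUHr. HSP90AA1, the gene of HSP90α, was at 90.4 CPM in HSP90α-KO and 704 CPM in EV. HSP90AB1, the gene of HSP90β, was at 1913 CPM in HSP90β-KO and 2806 CPM in EV. Of 9 genes that mark K562 cells, 8 had reads in the knockout models and 9 in the resistance libraries. Their summed level was 527.8 to 559 CPM in EV, 481 to 522 CPM in HSP90α-KO, 451 to 461 CPM in HSP90β-KO, 1389 to 1420 CPM in parental cells and 1221 to 1303 CPM in PUHr. Of the 8 tested, 3 rose and 5 fell in HSP90α-KO (median log2 fold change -0.52), where 27.5% of all genes rose and 26.6% fell. In HSP90β-KO 0 rose and 5 fell (median -0.24), where 17.2% of all genes moved each way, and in PUHr 3 rose and 4 fell (median -0.13), where 25.6% rose and 25.8% fell. Of 4 T cell markers 2 were listed in the knockout table, and these summed to 7.61 to 8.43 CPM in EV, 3.66 to 4.56 CPM in HSP90α-KO and 15.2 to 17.3 CPM in HSP90β-KO, with CD2 and CD8A not listed. Of 4 B cell markers 2 were listed in the knockout table, and the list summed to 5.66 to 7.18 CPM in EV, 4.93 to 5.85 CPM in HSP90α-KO, 4.53 to 6.49 CPM in HSP90β-KO, 3.52 to 3.99 CPM in parental cells and 2.13 to 2.18 CPM in PUHr, with MS4A1 at 0 or not listed in any group and PAX5 likewise in all but parental cells. Of 3 epithelial markers EPCAM carried nearly all reads, and the list summed to 58.2 to 66.4 CPM over the knockout models, 75.2 to 78.1 CPM in parental cells and 25.4 to 28.0 CPM in PUHr, where EPCAM fell (log2 fold change -1.503, adjusted p = 1.3e-12 with limma). T cell markers summed to 9.10 to 9.47 CPM in parental cells and 7.32 to 7.83 CPM in PUHr. The 3 fibroblast markers stayed between 1.03 and 5.61 CPM, and 3 monocyte markers summed to at most 0.667 CPM. The part of these levels and of the mitochondrial share in the results was not tested.

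TOP2A (ENSG00000131747) spans 40388525 to 40417896 on the minus strand of chromosome 17. In EV it was measured at 446, 419 and 438 CPM, in HSP90α-KO at 640, 663 and 687 CPM and in HSP90β-KO at 387, 394 and 389 CPM. HSP90α-KO libraries thus lay above and HSP90β-KO libraries below all EV libraries, with no overlap. In parental cells TOP2A was at 629, 628 and 617 CPM and in PUHr at 713, 706 and 698 CPM, again without overlap. The log2 fold change was 0.61 (SE 0.030, adjusted p = 2.1e-15 with limma) in HSP90α-KO, -0.16 (SE 0.030, adjusted p = 2.1e-04) in HSP90β-KO and 0.18 (SE 0.020, adjusted p = 3.6e-06) in PUHr. TOP2A passed in each of the alternatives tried in the 3 comparisons.

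**Figure D1:**
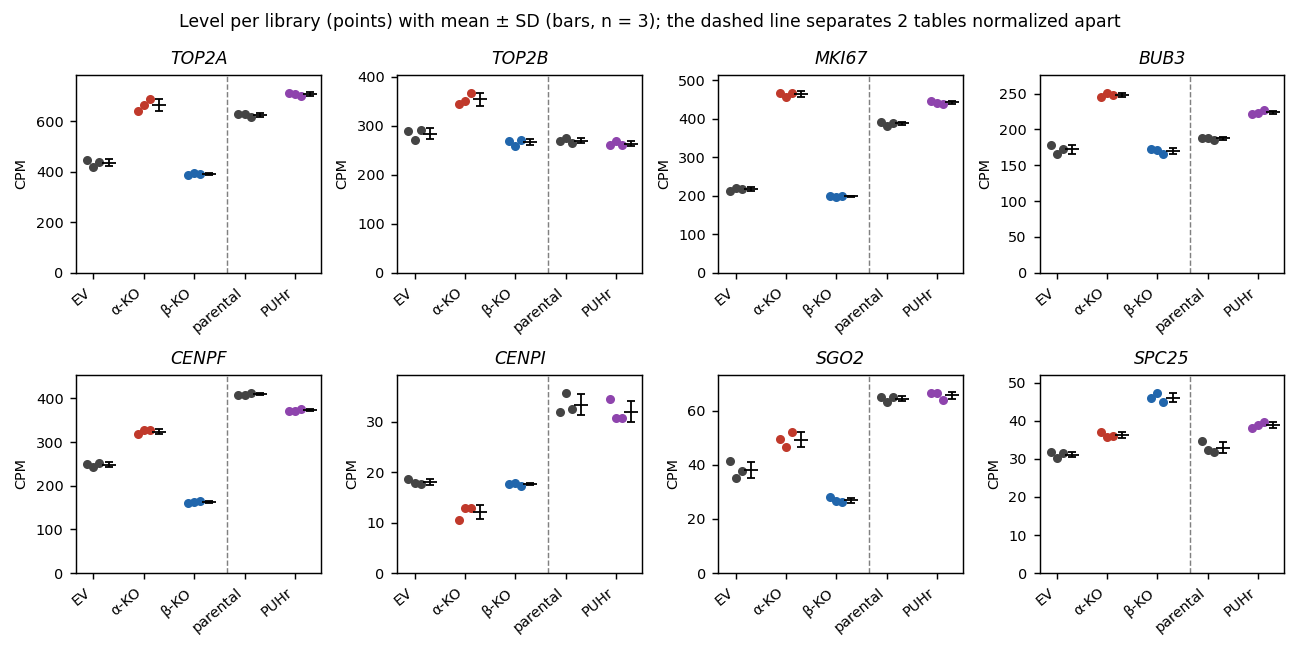
Expression level in CPM of TOP2A, its paralog TOP2B and 6 other mitosis genes in every library (points), with the mean ± SD of the 3 replicates (bars). TOP2A and MKI67 were highest in HSP90α-KO within the knockout table, CENPF and SGO2 fell and SPC25 rose in HSP90β-KO, and CENPI fell in HSP90α-KO. Levels on either side of the dashed line were normalized apart.

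TOP2B showed part of this pattern. It was measured at 290, 271 and 291 CPM in EV, at 344, 350 and 368 CPM in HSP90α-KO and at 269, 260 and 271 CPM in HSP90β-KO. The rise in HSP90α-KO was 0.32 on the log2 scale (SE 0.033, adjusted p = 5.3e-09 with limma), above all EV libraries. In HSP90β-KO the value was -0.09 (SE 0.033, adjusted p = 0.034), and it did not pass in 5 of 21 alternatives. In PUHr TOP2B was at 261, 269 and 261 CPM against 270, 275 and 266 CPM in parental cells, a log2 fold change of -0.03 that did not pass (adjusted p = 0.26). With median centring it passed as lower (-0.08, adjusted p = 0.011 with limma).

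For loss of HSP90α, 45 of the 54 mitosis genes rose against EV, 1 fell and 8 did not pass. Over all genes tested 27.5% rose and 26.6% fell, and these shares apply to the roles below as well. The median log2 fold change of the members was 0.24, against -0.01 over all genes, so most members moved by a small amount in one direction. In 43 members every HSP90α-KO library lay above every EV library, as in 29.0% of all genes, and in 1 member below, as in 28.3%. Only MKI67 passed the threshold of a log2 fold change of 1 as well, against 10.3% of all genes in either direction.

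Among the 7 genes of chromosome structure, 6 rose. MKI67, which encodes the proliferation marker Ki-67 that coats mitotic chromosomes, was measured at 213, 221 and 219 CPM in EV and at 468, 456 and 469 CPM in HSP90α-KO. Its log2 fold change of 1.09 (SE 0.029, adjusted p = 2.9e-21 with limma) was the largest of the 54. The condensin subunits NCAPD2 (0.43), SMC4 (0.34), NCAPG (0.15) and SMC2 (0.12) also rose. NCAPH, the kleisin subunit of condensin I, was at 0.08 and did not pass (adjusted p = 0.065). NCAPD2 lay between 149 and 151 CPM in EV and between 200 and 209 CPM in HSP90α-KO, so that its groups were well apart.

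Of the 7 genes of mitotic entry and centrosome control, 6 rose. They were the CDK1-activating phosphatases CDC25B (0.36) and CDC25C (0.24), the kinases AURKA (0.35), PLK4 (0.33) and PLK1 (0.25), and the transcription factor FOXM1 (0.12, adjusted p = 0.030 with limma). FOXM1 was at 55.5, 50.7 and 55.9 CPM in EV and at 61.3, 56.5 and 58.2 CPM in HSP90α-KO, a narrow gap, and it did not pass in 4 of 21 alternatives. NEK2, a kinase that splits the centrosomes, was at -0.02 (adjusted p = 0.77). Of the regulators of these genes, MYBL2, which loads onto MuvB, was at -0.07 (adjusted p = 0.15) and passed as lower in 2 of 21 alternatives, and LIN54, the subunit of MuvB that binds the CHR, was at -0.03 (adjusted p = 0.68). The MuvB subunits LIN9 (0.37) and LIN52 (0.33) rose, and in the whole list of 19 DREAM, MuvB and E2F factors 6 rose (31.6%, against 27.5% of all genes) and 3 fell (26.6% of all genes).

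The 3 listed genes of the chromosomal passenger complex, which corrects faulty attachments of chromosomes to the spindle, all rose: CDCA8 (0.32), INCENP (0.26) and the kinase AURKB (0.18). Of the 5 genes of the spindle checkpoint, which delays anaphase until all chromosomes are attached, 4 rose. BUB3 was at 178, 166 and 173 CPM in EV and at 245, 252 and 248 CPM in HSP90α-KO, a log2 fold change of 0.53 (SE 0.032, adjusted p = 1.7e-13 with limma). MAD2L1 (0.25), TTK (0.15) and BUB1 (0.14) rose by less. BUB1B was at 0.08 and did not pass (adjusted p = 0.087).

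Of the 10 centromere and kinetochore genes, 7 rose, 1 fell and 2 did not pass. CENPF, a large protein of the outer kinetochore, was at 249, 242 and 253 CPM in EV and at 318, 327 and 327 CPM in HSP90α-KO (log2 fold change 0.39). CENPI, a subunit of the inner kinetochore, moved the other way. It was at 18.7, 17.8 and 17.7 CPM in EV and at 10.5, 12.9 and 12.8 CPM in HSP90α-KO. Its log2 fold change of -0.58 (SE 0.074, adjusted p = 2.1e-07 with limma) was the only one that fell. The motor CENPE (0.24), which carries chromosomes to the spindle equator, rose, as did the NDC80 complex subunits SPC25 (0.22), NUF2 (0.21), NDC80 (0.14) and SPC24 (0.11) and their scaffold KNL1 (0.21). The histone variant CENPA (0.12, adjusted p = 0.12) and CENPN (0.07, adjusted p = 0.36) did not pass.

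Among the 10 spindle motors and microtubule-binding proteins, 9 rose and KIF18A did not pass (0.11, adjusted p = 0.082). KIFC1, a motor that clusters extra centrosomes, was at 29.2, 31.9 and 30.1 CPM in EV and at 43.9, 40.1 and 41.0 CPM in HSP90α-KO (log2 fold change 0.45, SE 0.053, adjusted p = 4.9e-08 with limma). HMMR, a spindle-pole protein, was at 112, 108 and 110 CPM against 145, 145 and 146 CPM (0.40). KIF11, which pushes the spindle poles apart, was at 103, 97.2 and 99.6 CPM against 125, 133 and 139 CPM (0.40). In each of these genes the groups were separated. DLGAP5 (0.40), a spindle-assembly protein, TPX2 (0.34), the activator of AURKA at the spindle, KIF20B (0.31), KIF2C (0.28), KIF4A (0.17) and KIF14 (0.11) rose too.

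Of the 5 cytokinesis genes 4 rose. KIF20A (0.39) and KIF23 (0.12) are motors of the central spindle, ANLN (0.37) is a scaffold of the contractile ring and ECT2 (0.18) activates RhoA at the cleavage furrow. PRC1 (0.11, adjusted p = 0.48) did not pass. Of the 7 genes of anaphase and its ubiquitin ligase APC/C, 6 rose. FBXO5 (0.38), an inhibitor of the APC/C, SGO2 (0.37) and SGO1 (0.29), which protect cohesion at centromeres, and the APC/C activator CDC20 (0.31) were above PTTG1 (0.18), the gene of securin, and ESPL1 (0.13), the gene of separase. Of the 45 rises in HSP90α-KO, 8 did not pass in every alternative of processing, all of them at 0.18 or less (BUB1, ECT2, ESPL1, FOXM1, KIF14, NDC80, SMC2 and SPC24).

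**Figure D2:**
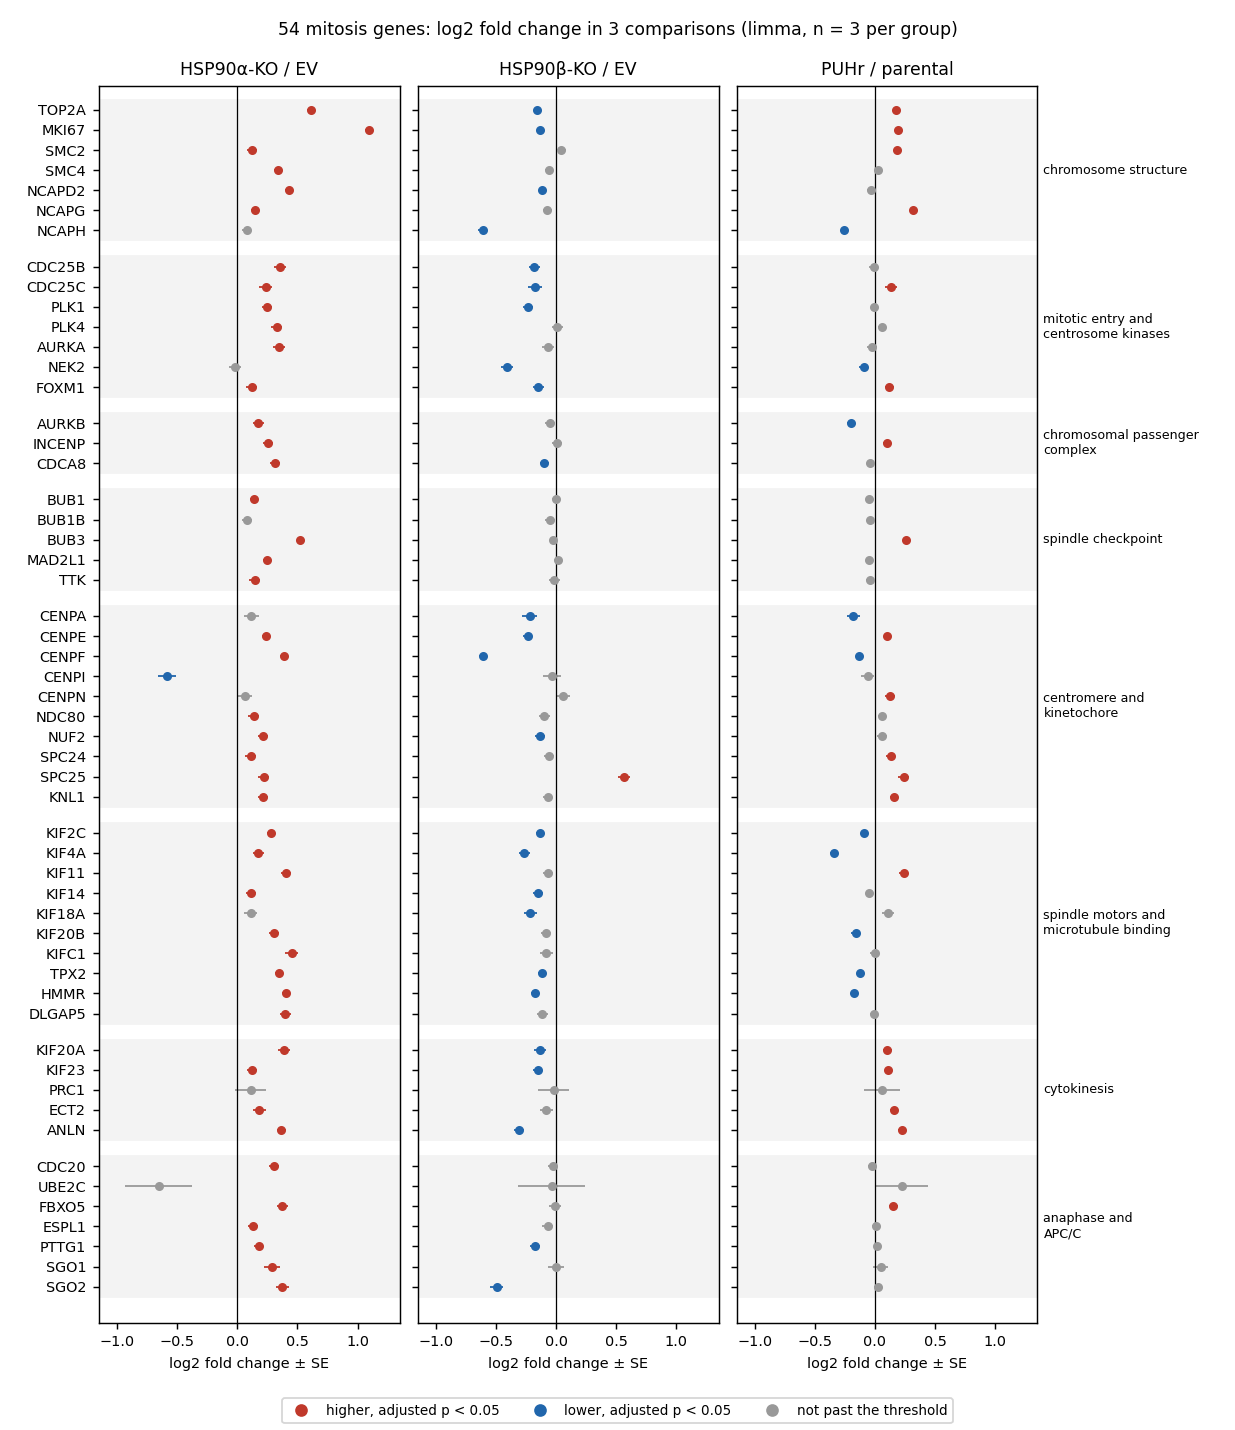
Log2 fold change ± SE (limma, 3 libraries per group) of all 54 mitosis genes, ordered by role, for HSP90α-KO against EV, HSP90β-KO against EV and PUHr against parental cells. In HSP90α-KO 45 genes rose and 1 fell, in HSP90β-KO 25 fell and 1 rose, and in PUHr 19 rose and 10 fell at an adjusted p under 0.05. Both knockout panels share the EV libraries.

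After loss of HSP90β, 25 mitosis genes fell against EV, 1 rose and 28 did not pass. Over all genes tested 17.2% fell and 17.2% rose. Of the members, 48 of 54 had a log2 fold change below 0, and their median was -0.09, against 0.00 over all genes. In 30 members all HSP90β-KO libraries lay below all EV libraries, as in 23.1% of all genes, and in 1 above, as in 23.5%. No member passed the fold threshold, which 4.48% of all genes did. Of the 26 calls 19 held in every alternative, 8 further members passed in at least 1 of them, and the number that fell ran from 19 without EV replicate 1 to 33 with libraries centred on their medians.

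The largest falls in HSP90β-KO were those of CENPF and NCAPH. CENPF was at 161, 162 and 164 CPM, below EV, with a log2 fold change of -0.61 (SE 0.030, adjusted p = 5.5e-15 with limma). NCAPH was at 56.3, 56.4 and 57.8 CPM against 87.1, 85.3 and 87.9 CPM in EV (-0.61, SE 0.037, adjusted p = 3.8e-13). SGO2, at 28.0, 26.6 and 26.3 CPM against 41.3, 35.2 and 37.8 CPM in EV, followed with -0.49 (adjusted p = 6.5e-08). For NEK2 the value was -0.41 and for ANLN -0.31, with ANLN at 51.6, 51.6 and 51.9 CPM against 64.8, 61.1 and 66.2 CPM in EV. KIF4A (-0.26), CENPE (-0.24), PLK1 (-0.23), CENPA (-0.22) and KIF18A (-0.21) fell by less.

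SPC25, a subunit of the NDC80 complex, was the only member that rose in HSP90β-KO. It was at 31.7, 30.3 and 31.4 CPM in EV and at 45.9, 47.4 and 45.1 CPM in HSP90β-KO, a log2 fold change of 0.56 (SE 0.046, adjusted p = 1.5e-10 with limma). Its partners NDC80 (-0.10, adjusted p = 0.086 with limma) and SPC24 (-0.06, adjusted p = 0.31) did not pass, and NUF2 fell (-0.13, adjusted p = 0.017). The fall of NUF2 did not pass in 4 of 21 alternatives. By role, 5 of 7 genes of mitotic entry fell, 6 of 10 motors and microtubule-binding proteins and 4 of 7 genes of chromosome structure. So did 4 of 10 kinetochore genes, 3 of 5 cytokinesis genes, 2 of 7 anaphase genes and 1 of 3 passenger genes, where 17.2% of all genes fell. None of the 5 checkpoint genes passed, and they lay between -0.05 and 0.01. FOXM1 was at -0.15 (adjusted p = 0.014 with limma) and did not pass in 4 of 21 alternatives. MYBL2 was at 0.07 (adjusted p = 0.19) and LIN54 at -0.14 (adjusted p = 0.026). LIN54 did not pass in 5 of 21 alternatives, among them those without EV replicate 1 or 3 and without HSP90β-KO replicate 1 or 3 (adjusted p from 0.052 to 0.15 with limma).

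In all, 21 members rose in HSP90α-KO and fell in HSP90β-KO, against 5.85% of all tested genes. TOP2A and MKI67 are among them, together with FOXM1, PLK1, CDC25B, CDC25C, NCAPD2, CDCA8, CENPE, CENPF, NUF2, KIF2C, KIF4A, KIF14, TPX2, HMMR, KIF20A, KIF23, ANLN, PTTG1 and SGO2. Of the 21, CDC25C, CDCA8, FOXM1, KIF14, KIF20A and NUF2 did not pass in HSP90β-KO in every alternative. FOXM1 and KIF14 did not do so in HSP90α-KO either. A further 23 rose in HSP90α-KO and did not pass in HSP90β-KO, against 15.8% of all genes, and 4 passed in neither, against 34.1%. SPC25 was the 1 member that rose in both, against 5.92% of all genes. No member fell in both (5.82% of all genes) or fell in HSP90α-KO and rose in HSP90β-KO (5.14%). The EV libraries are shared by these 2 comparisons, and the counts are therefore not independent.

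Set directly against HSP90β-KO, a difference that contains no EV library although these enter the shared estimate of the spread, HSP90α-KO had 48 mitosis genes that were higher and 2 that were lower, with 4 that did not pass. Of all genes 30.1% were higher and 29.8% lower. In 48 members the libraries of HSP90α-KO lay above all of HSP90β-KO, as in 32.0% of all genes, and in 2 below, as in 31.8%. The median log2 difference of the members was 0.35, and that of all genes -0.01. MKI67 differed the most (1.22, SE 0.029, adjusted p = 1.2e-22 with limma) and was the only member past the fold threshold, against 12.7% of all genes. CENPF (0.99), SGO2 (0.87), TOP2A (0.77, SE 0.030, adjusted p = 9.8e-18) and NCAPH (0.69) followed. The exceptions were CENPI (-0.55) and SPC25 (-0.35), both lower in HSP90α-KO, and SMC2, CENPN, PRC1 and UBE2C, which did not pass. Of these 50 calls, 49 held in every alternative, with BUB1 (0.14) as the one that did not.

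In PUHr cells the mitosis genes did not move as a group. Against parental cells 19 rose, 10 fell and 25 did not pass, where 25.6% of all genes rose and 25.8% fell. With libraries centred on their medians 11 rose and 17 fell, so the balance of directions depended on the scaling. The median log2 fold change was 0.03, that of all genes 0.00, and no member passed the fold threshold, which 10.1% of all genes did. In 21 members the PUHr libraries lay above all parental libraries, as in 29.2% of all genes, and in 13 below, as in 29.3%. Only 13 of the 29 calls held in every alternative.

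The largest rise in PUHr was that of NCAPG, a HEAT-repeat subunit of condensin I. It was at 129, 129 and 130 CPM in parental cells and 163, 164 and 157 CPM in PUHr (log2 fold change 0.32, SE 0.027, adjusted p = 2.0e-07 with limma). BUB3 was at 189, 189 and 186 CPM against 222, 224 and 227 CPM (0.26), and KIF11 at 122, 124 and 122 CPM against 146, 153 and 136 CPM (0.24). None of these overlapped between the groups. SPC25 (0.24), ANLN (0.22), MKI67 (0.19), SMC2 (0.19), TOP2A (0.18) and ECT2 (0.16) followed. Of the 5 cytokinesis genes 4 rose and 0 fell, where 25.6% of all genes rose and 25.8% fell. Among these 4, KIF20A did not pass in 7 of 17 alternatives and KIF23 in 3.

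The largest falls in PUHr were those of KIF4A, a motor of chromosome arms and the central spindle, and NCAPH. KIF4A was at 94.8, 95.2 and 91.4 CPM in parental cells and at 76.2, 73.5 and 72.8 CPM in PUHr (-0.34, SE 0.033, adjusted p = 6.3e-07 with limma). NCAPH was at 117, 114 and 115 CPM against 99.0, 94.5 and 96.5 CPM (-0.26), so that 2 subunits of condensin I, NCAPG and NCAPH, moved in opposite directions. AURKB (-0.20), CENPA (-0.18), HMMR (-0.17), KIF20B (-0.16), CENPF (-0.13), TPX2 (-0.12), NEK2 (-0.09) and KIF2C (-0.09) fell as well. NEK2 did not pass in 9 of 17 alternatives, KIF2C in 5 and CENPA in 3. Of the 10 motors and microtubule-binding proteins 5 fell and 1, KIF11, rose, where 25.8% of all genes fell and 25.6% rose. Of these 5, KIF2C, KIF20B and TPX2 did not pass in every alternative. Across the tables, 18 members rose both in HSP90α-KO and in PUHr, against 7.19% of the 15735 genes tested in both. Of the 18, 9 did not pass in PUHr in every alternative (CDC25C, CENPE, FBXO5, FOXM1, INCENP, KIF20A, KIF23, KNL1 and SPC24), and FOXM1, SPC24, SMC2 and ECT2 did not pass in HSP90α-KO in every alternative. A further 7 rose in HSP90α-KO and fell in PUHr (AURKB, CENPF, KIF2C, KIF4A, KIF20B, TPX2 and HMMR), against 10.2% of these genes. Of the 7, CENPF, KIF2C, KIF20B and TPX2 did not pass in PUHr in every alternative. A remaining 20 rose in HSP90α-KO and did not pass in PUHr, against 10.6%.

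TOP2A took the direction of the other members in both knockouts and lay above their median in HSP90α-KO and in PUHr. These differences are descriptions and were not tested. In HSP90α-KO its log2 fold change of 0.61 was second of 54 after MKI67 and 0.37 above the median of the other 53 members, whose upper quartile was 0.35. In HSP90β-KO its -0.16 was the 15th lowest and 0.07 under the median, within the quartiles of the others (-0.17 to -0.04). Under quantile normalization this difference from the median was -0.0063. In PUHr its 0.18 ranked 9th and lay 0.15 above the median, over the upper quartile of 0.13, and this difference was 0.24 under quantile normalization. Among all genes tested, 90.2% lay under TOP2A in HSP90α-KO, 27.0% in HSP90β-KO and 70.4% in PUHr.

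The same held in single libraries. Relative to the EV mean, the median of the other members was 0.24, 0.22 and 0.23 in the HSP90α-KO libraries, and TOP2A was at 0.56, 0.61 and 0.66. In the HSP90β-KO libraries the medians were -0.09, -0.10 and -0.10, and TOP2A was at -0.17, -0.14 and -0.16. Relative to the parental mean, the medians in PUHr were 0.06, 0.03 and -0.01, and TOP2A was at 0.19, 0.18 and 0.16. TOP2A thus exceeded the median in each HSP90α-KO and PUHr library and was under it in each HSP90β-KO library. By Euclidean distance over the 3 log2 fold changes, the members most like TOP2A were BUB3 (0.18), KIF11 (0.23), KIF20A (0.23), KIFC1 (0.25) and FBXO5 (0.28). Those least like it were UBE2C (1.27) and CENPI (1.22). In HSP90α-KO the tested genes within 5 Mb of BUB3 had a median log2 fold change of 0.60, and those near CENPI -1.002. UBE2C had only 7 to 28 reads per library in the knockout models, so its distance is imprecise.

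**Figure D3:**
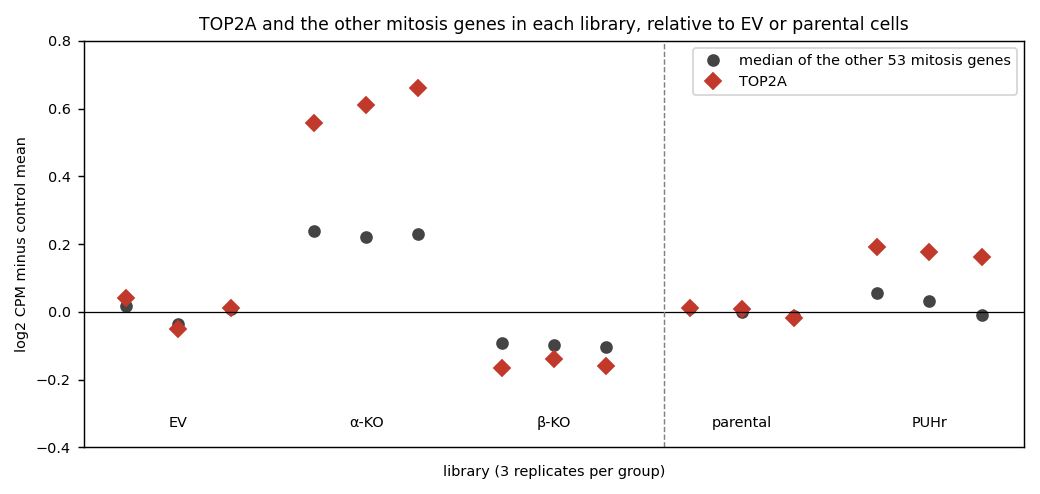
Log2 CPM of TOP2A (diamonds) and the median of the other 53 mitosis genes (circles) in each library, relative to the mean of EV or of parental cells. TOP2A lies between 0.56 and 0.66 in HSP90α-KO, where the median lies between 0.22 and 0.24, and both lie below 0 in HSP90β-KO.

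A few members lay among neighbouring genes whose values were shifted in the same direction. For each member the median log2 fold change of the tested genes within 5 Mb was taken, over 16 to 229 genes. In HSP90α-KO it lay beyond 0.25 in either direction for 3 members. For MKI67 on chromosome 10 (128096659 to 128126423) the 33 neighbours had a median of 0.56, and for BUB3 on the same chromosome (123154402 to 123170467) the 50 neighbours had 0.60, with windows that overlap. For CENPI on the X chromosome (101098188 to 101166126) the 49 neighbours had -1.002. The member that fell thus lay among genes that were lower, and MKI67 and BUB3 among genes that were higher.

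In HSP90β-KO the 4 largest falls lay in such surroundings. The neighbour medians were -0.50 for NCAPH (54 genes, chromosome 2), -0.58 for SGO2 (65 genes, chromosome 2), -0.37 for CENPF (40 genes, chromosome 1) and -0.45 for NEK2 (45 genes, chromosome 1, where its window overlaps that of CENPF). SPC25, which rose, had neighbours with a median of 0.00. In PUHr no member had a neighbour median beyond 0.25. TOP2A had neighbour medians of 0.04, 0.02 and -0.03 in HSP90α-KO, HSP90β-KO and PUHr. Without the members in such surroundings 43 of 51 rose and 0 fell in HSP90α-KO (median 0.24), where 27.5% of all genes rose and 26.6% fell. In HSP90β-KO 21 of 50 fell and 1 rose (median -0.08), where 17.2% of all genes moved each way. Between the knockouts 8 members had neighbour medians beyond 0.25. These were SGO2 (0.74), BUB3 (0.55), MKI67 (0.50), NEK2 (0.45), CENPF (0.45), NCAPH (0.45), ECT2 (0.38) and CENPI (-0.97). Of the remaining 46 members, 41 were higher in HSP90α-KO than in HSP90β-KO, as were 30.1% of all genes. Across the 54 members the Pearson correlation between a member's log2 fold change and the median of its neighbours was 0.64 in HSP90α-KO, 0.67 in HSP90β-KO and 0.39 in PUHr. This is a description across genes, some of which share neighbours and all of which share libraries. Only 3, 4 and 0 members had neighbour medians beyond 0.25 in these comparisons. No correlation was taken without them, so the values may rest largely on those few members. The part of these surroundings in the members' values was not tested.

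**Figure D4:**
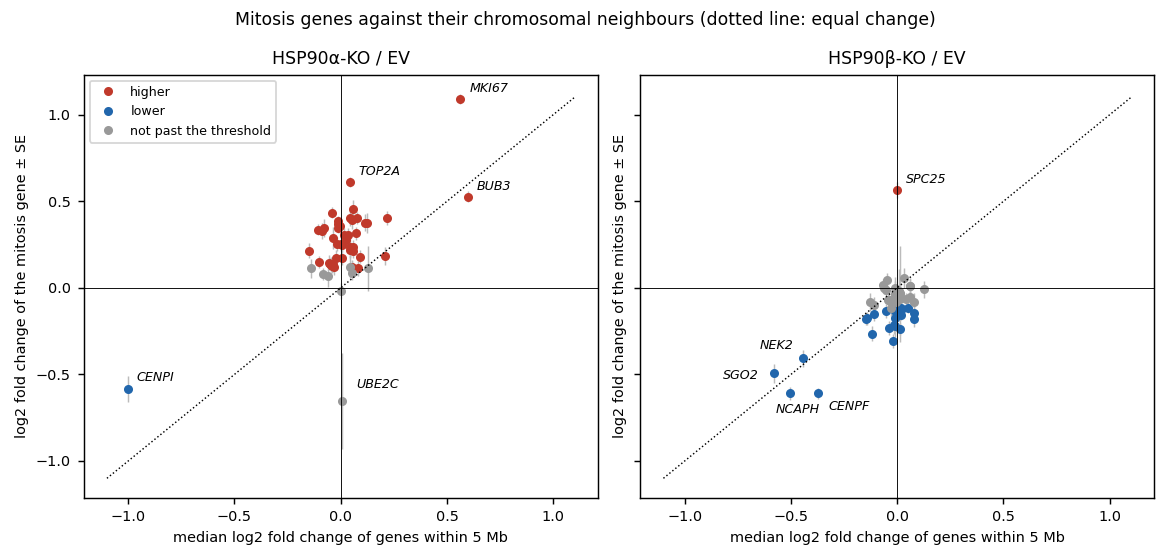
Log2 fold change ± SE of each mitosis gene (vertical axis) against the median log2 fold change of the genes tested within 5 Mb (horizontal axis), for HSP90α-KO and HSP90β-KO against EV. Most members lie near 0 on the horizontal axis. MKI67, BUB3 and CENPI in HSP90α-KO and NCAPH, SGO2, CENPF and NEK2 in HSP90β-KO lie beyond 0.25.

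UBE2C and PRC1 carried few reads. UBE2C, the ubiquitin-conjugating enzyme of the APC/C, had 7 to 28 reads per library in the knockout models and 15 to 24 in parental and PUHr cells. Its log2 fold change in HSP90α-KO was -0.65 (SE 0.28, adjusted p = 0.051 with limma), and it passed in 4 of 20 alternatives, among them those without EV replicate 1 and without HSP90α-KO replicate 1. PRC1, which bundles microtubules in the central spindle, had 65 to 101 reads, and 57.6% of its exonic bases are shared on the same strand with ENSG00000284946, which had 346 to 567. Neither passed in any of the 4 comparisons, and reads on PRC1 are uncertain. Without these 2 genes, a choice made after seeing their values, 45 of 52 members rose in HSP90α-KO and 25 of 52 fell in HSP90β-KO. Of all genes 27.5% rose in HSP90α-KO and 17.2% fell in HSP90β-KO. CENPN (12.6%), BUB1B (10.2%) and CENPA (7.08%) share a smaller part of their exons with a gene on the same strand.

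Other genes of mitosis were taken as a list of 61 that holds none of the 54. In HSP90α-KO 38 of them rose and 3 fell, with a median log2 fold change of 0.17, where 27.5% of all genes rose and 26.6% fell. ASPM (0.31), CDCA5 (0.31), the cohesion factor sororin, CEP55 (0.27) and BIRC5 (0.22), the gene of survivin, were among those that rose. In HSP90β-KO 8 rose (13.1% of the list) and 13 fell (median 0.00), where 17.2% of all genes moved each way. In PUHr 11 rose (18.0% of the list) and 6 fell (median 0.02), where 25.6% of all genes rose and 25.8% fell. Cohesin and its regulators, which hold sister chromatids together, had 9 of 12 genes that rose and 2 that fell in HSP90α-KO (median 0.19). SMC3 rose by 0.67, whereas STAG2 was at -0.33 (adjusted p = 1.2e-09 with limma). Neighbour medians were taken for the 54 members only, so the chromosomal surroundings of these listed genes were not described. The core subunits of the APC/C were mixed, with 6 of 15 that rose and 5 that fell (median -0.01).

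The other topoisomerases were described in the same way. Of the list of 5, TOP1, which relaxes DNA by cutting a single strand, rose by 0.67 in HSP90α-KO (SE 0.032, adjusted p = 8.5e-16 with limma), more than TOP2A. It was at 0.11 in HSP90β-KO (adjusted p = 0.0092) and at 0.01 in PUHr (adjusted p = 0.88). TOP3A, TOP3B and the mitochondrial TOP1MT did not pass in HSP90α-KO. In a list of 15 reference genes 5 rose and 3 fell in HSP90α-KO (median 0.05), 4 rose and 4 fell in HSP90β-KO (median 0.00), and 2 rose and 10 fell in PUHr (median -0.20). Of all genes tested 27.5% rose and 26.6% fell in HSP90α-KO, 17.2% and 17.2% in HSP90β-KO, and 25.6% and 25.8% in PUHr.

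**Figure D5:**
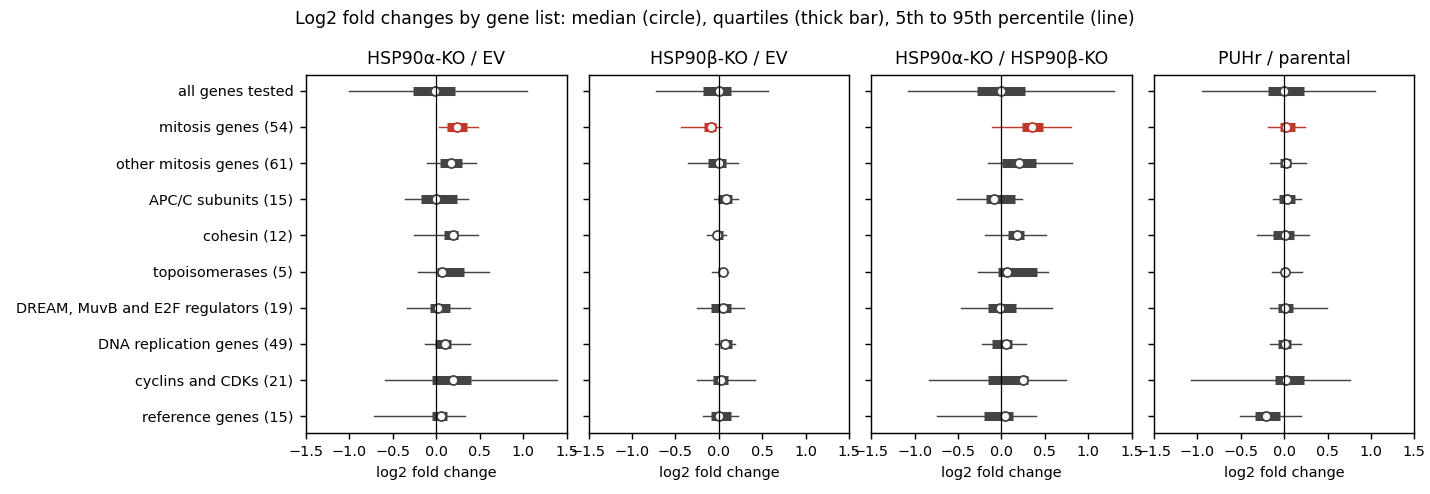
Distribution of log2 fold changes over all genes tested, the 54 mitosis genes and the other lists, in 4 comparisons. Circles mark medians, thick bars quartiles and lines the 5th to 95th percentile, with the number of genes in parentheses. The mitosis genes lie above 0 in HSP90α-KO (median 0.24), below 0 in HSP90β-KO (median -0.09) and around 0 in PUHr (median 0.03).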

How the data were processed

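Gene expression in K562 cells was read from a table of 9 knockout libraries and a table of 6 resistance libraries, with 3 replicates per group. Stranded libraries were sequenced as single reads, and per the labels STAR (hg38), featureCounts and edgeR were used. The values deposited by the authors are log2 CPM with a small prior count. Values fell on whole reads (largest deviation 7.2e-08 reads up to 200 reads), and CPM in the text are those reads times the CPM of 1 read. The 30 and 114 entries without an identifier, 0.027 to 0.036% of reads, were left out.

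Tests used limma 3.58.1 in R 4.3.3 (lmFit, contrasts, eBayes with an intensity trend, 1 fit per table, two-sided, Benjamini-Hochberg adjustment over all tested genes) on genes that reached a log2 value of -1 in 3 or more libraries. A gene rose or fell at an adjusted p under 0.05; the fold threshold was a log2 fold change of 1. The fit was run on simulated counts with the same dispersion for every gene and planted changes larger than those of most members. The fit was therefore not tested on small changes. The 54 members and all lists were chosen with earlier results of these data known, so no list was tested. TOP2A, TOP2B, FOXM1, MYBL2 and LIN54 were named by rule, with the 8 largest rises and falls per comparison, members that moved in opposite directions in the knockouts, the 5 nearest to TOP2A and members with shifted neighbours within 5 Mb. Other genes are named to account for each member and list. Gene positions are from GENCODE on GRCh38, promoters from RefSeq on GRCh38.p14. Alternatives covered the filter, added CPM of 0.1, 1 and 5, scaling, variance model, voom, a replicate block, fewer libraries and each library left out.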

Additional observations from a re-analysis of the deposited data

How the results depend on the processing

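No value of a member that passed changed direction under any alternative. In HSP90α-KO against EV, 2 members fell instead of 1 with median centring and with the robust variance model. When single libraries were left out 1 to 2 fell (2 without EV replicate 1 or HSP90α-KO replicate 1). The addition was UBE2C. Members that rose ranged from 41 to 45 with a library left out and from 39 to 45 over all 21 alternatives. The excess of TOP2A over the median of the others ranged from 0.37 to 0.41 with a library left out. Under quantile normalization that difference was -0.0063 in HSP90β-KO, 0.32 between the knockouts and 0.24 in PUHr. Between the knockouts, 2 members passed the fold threshold with median centring and 1 to 2 with a library left out (2 without HSP90α-KO replicate 1 or HSP90β-KO replicate 3), the addition being CENPF. In HSP90β-KO 33 members fell with median centring, and 19 to 26 with a library left out. In PUHr 10 members rose and 5 fell without the filter on low values, 12 and 6 without the intensity trend, and 11 and 17 with median centring (median log2 fold change -0.0205), and 15 to 18 rose and 7 to 10 fell with a library left out. The causes were not tested. Of 26 calls in HSP90β-KO, CDC25C, CDCA8, CENPA, FOXM1, KIF14, KIF20A and NUF2 did not pass in every alternative. Replicate numbers did not pair the libraries (deviations of the same number correlated between -0.184 and 0.0661 among knockout libraries and between -0.0237 and 0.0993 among resistance libraries). With a replicate block 45 members rose and 1 fell in HSP90α-KO, 24 fell in HSP90β-KO, and 18 rose and 9 fell in PUHr. UBE2C had at most 28 reads in any library, which limits the precision of its values.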

Other observations

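Genes that act before mitosis were described in the same way, against 27.5% of all genes that rose and 26.6% that fell in HSP90α-KO, 17.2% each way in HSP90β-KO, and 25.6% and 25.8% in PUHr. Of 49 DNA replication genes 26 rose and 4 fell in HSP90α-KO (median log2 fold change 0.10), and 17 rose and 2 fell in HSP90β-KO (median 0.07). Directly compared, 17 were higher and 15 lower in HSP90α-KO than in HSP90β-KO, where 30.1% of all genes were higher and 29.8% lower. In HSP90α-KO the helicase subunits MCM3 (0.17) and MCM4 (0.13) rose, whereas MCM5 fell (-0.13, adjusted p = 0.0039 with limma) and PCNA did not pass (0.05, adjusted p = 0.18). In PUHr 11 replication genes rose and 10 fell.

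Of 21 cyclins, CDKs and their inhibitors, 13 rose and 5 fell (23.8%) in HSP90α-KO, where 27.5% of all genes rose and 26.6% fell. In HSP90β-KO 5 rose (23.8%) and 3 fell, where 17.2% of all genes moved each way. In PUHr 9 rose and 5 fell (23.8%), where 25.6% of all genes rose and 25.8% fell. CCNB1, the partner of CDK1 in mitosis, rose by 0.47 in HSP90α-KO (adjusted p = 1.3e-12 with limma), was at -0.06 in HSP90β-KO (adjusted p = 0.14) and at -0.11 in PUHr (adjusted p = 0.0041). CDK1 rose by 0.27 in HSP90α-KO. CDKN1A, the gene of the cell cycle inhibitor p21, rose in all 3 comparisons, by 1.39, 1.14 and 0.76. Among 19 genes of the DREAM, MuvB and E2F factors, 6 rose and 3 fell in HSP90α-KO (median 0.03), with LIN9 (0.37) and LIN52 (0.33) among those that rose and E2F2 (-0.32) and E2F5 (-0.33) among those that fell.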
